A study of Drosophila melanogaster with 4 samples.

Results

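The Antennapedia complex and the bithorax complex are the 2 clusters of Hox genes on chromosome arm 3R of Drosophila melanogaster, and the dMi-2 regions called in them are described here. Members were all lines of the 3 deposited region lists that overlapped 3R:2480000-2830000 (Antennapedia complex, 350 kb) or 3R:12480000-12810000 (bithorax complex, 330 kb) in release 5 coordinates. Membership was thus set by position and not by a measured value, although the bounds were chosen with earlier results of these data known. They numbered 13 of 4213 regions in ChIP replicate 1 (7 in the Antennapedia complex and 6 in the bithorax complex). In ChIP replicate 2 they numbered 15 of 5359 (8 and 7), and in the combined list 43 of 9388 (21 and 22).

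The libraries came from whole embryos of the wild-type strain Oregon-R, labelled as 14 to 16 h old. The 2 dMi-2 ChIP libraries were made with an antibody coded Q4443, and each has 1 input library, chromatin sequenced without immunoprecipitation, as its control. Only the ChIP replicates and the combined list hold regions, and the inputs have no list of their own here. Chromatin of all embryonic cells was pooled, so a region gives no information on the segment or cell type in which dMi-2 was bound. Nothing in the labels tells if embryos were collected separately for each replicate, and their spread may therefore be technical. The depth behind each region is unknown, since no read counts accompany the lists.

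Hox genes encode homeodomain transcription factors that give body segments their identity, and their order along the chromosome follows the order of the segments they specify. In embryos of this age their active or silent state is maintained by Trithorax group and Polycomb group proteins. dMi-2, an ATPase of the CHD family that remodels nucleosomes, acts within the NuRD and dMec complexes. In Drosophila it binds the repressor Hunchback, and mutations in its gene enhance the effect of Polycomb group mutations on Hox genes.

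In the order of a RefSeq gene table on Release 6 of the genome, the Antennapedia complex runs from lab, which acts in the head, through pb (mouthparts), Dfd (mandibular and maxillary segments) and Scr (labial segment and anterior thorax) to Antp (thorax). Between lab and pb stands a group of cuticle protein genes that includes Edg84A and Ccp84Ag. Between pb and Dfd stand zen2, zen, bcd and Ama, and between Scr and Antp stands ftz. Between Dfd and Scr the table lists mir-10, 4 lysine tRNA genes and 2 genes of 7SL RNA, the RNA of the signal recognition particle. The bithorax complex runs from Ubx (haltere and anterior abdomen) through abd-A (middle abdomen) to Abd-B (posterior abdomen), with Glut3 between Ubx and abd-A. Between abd-A and Abd-B stand the long noncoding RNAs iab8 and iab4 and the microRNAs mir-iab-4 and mir-iab-8. All 8 Hox genes were matched by symbol. The table gives positions on another release than the regions, so it served for names and order alone. No region was assigned to a gene, and no value is given for a single Hox gene.

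Both Hox complexes were thinly covered by dMi-2 regions. In the combined list 13.3% of the Antennapedia complex (46.6 of 350 kb) and 11.7% of the bithorax complex (38.5 of 330 kb) were covered, against 21.5% of 3R outside them. In replicate 1 the covered shares were 4.90% of the Antennapedia complex and 2.88% of the bithorax complex, against 8.40% outside. In replicate 2 they were 5.70% and 3.01%, against 12.1% outside. Each complex was below the rest of 3R in both replicates and in the combined list. The mean of the replicates was 5.30% ± 0.57 for the Antennapedia complex and 2.95% ± 0.09 for the bithorax complex, against 10.3% ± 2.6 for the rest of 3R (SD, n = 2). For both complexes the gap to the rest of 3R was larger than these SDs. No test was run on 2 lists of called regions.

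**Figure D1:**
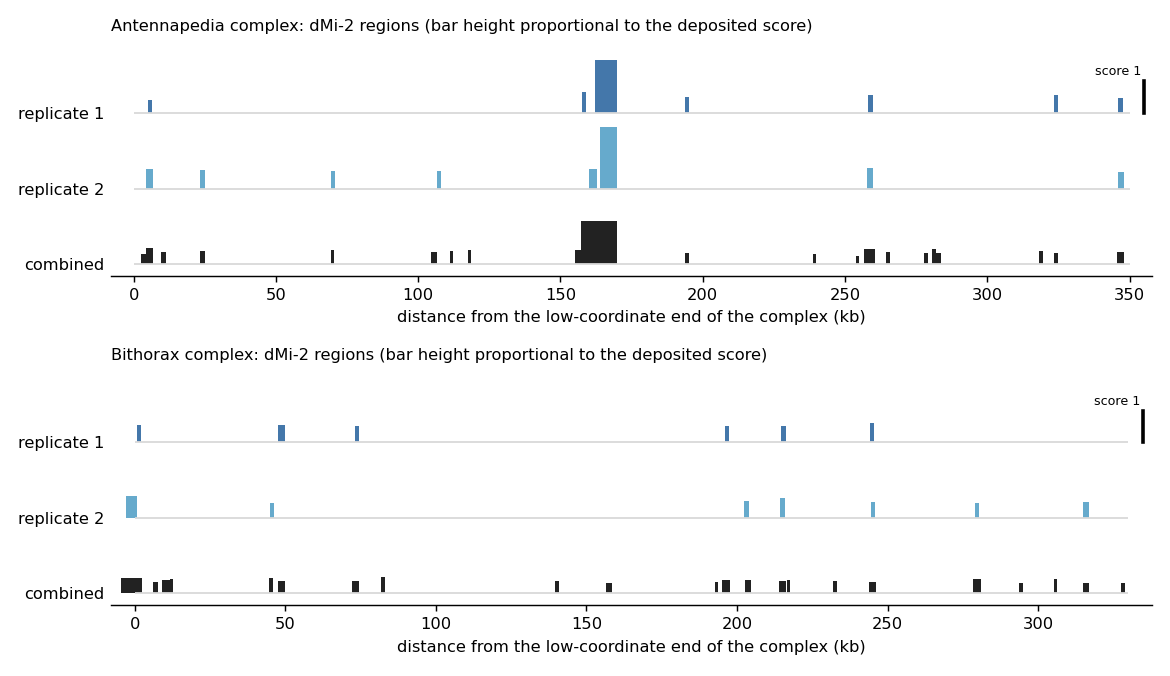
Positions of all dMi-2 regions in the Antennapedia complex (top) and the bithorax complex (bottom), as distance in kb from the low-coordinate end of each complex, for both ChIP replicates and the combined list. Bar width is region width and bar height is the deposited score, which can be compared within a list only; 1 region near 160 kb of the Antennapedia complex stands far above all others, and no such region is seen in the bithorax complex.

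Set among all 3R windows of their own length, moved in steps of 10 kb, both complexes lay in the lower part of the distribution. For the combined list 20.8% of 2756 windows were covered less than the Antennapedia complex, and the median window was covered to 20.0%. In replicate 1 the share of windows covered less was 23.5%, and in replicate 2 it was 12.1%. For the bithorax complex the share of windows covered less was 14.3% of 2758 in the combined list, 8.59% in replicate 1 and 3.88% in replicate 2. Windows overlap each other and are not independent, so these shares are a description and carry no p-value. With these bounds the bithorax complex had the lower place of the 2 complexes in each of the 3 lists. The order turned with bounds 10 kb wider at each end, where 30.7% of windows were covered less than the bithorax complex and 19.5% less than the Antennapedia complex. It also turned without the widest region of the Antennapedia complex, which then had 8.38% of windows below it. The bithorax complex and windows elsewhere on 3R kept their own widest regions, however. A lower place was thus built into this alternative, and it cannot decide the order of the complexes.

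**Figure D2:**
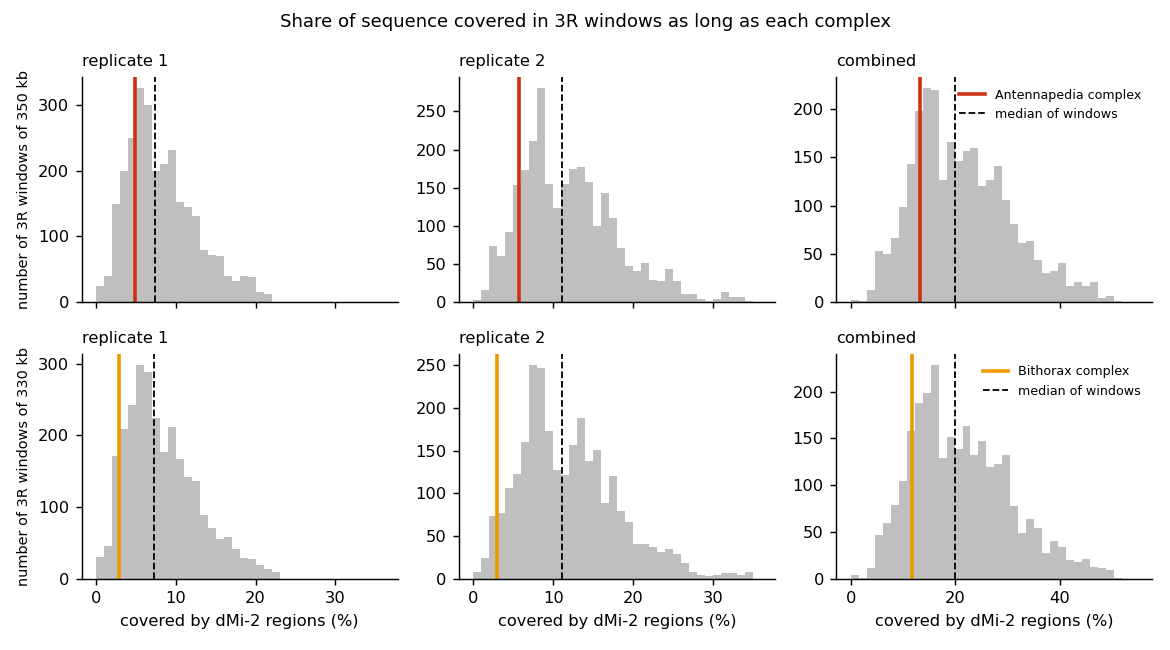
Number of 3R windows by the share of sequence covered (percent), for windows of 350 kb (top) and 330 kb (bottom) in replicate 1, replicate 2 and the combined list. The coloured line is the complex and the dashed line the median window; the complex lies left of the median in all 6 panels, at 13.3% for the Antennapedia complex and 11.7% for the bithorax complex in the combined list.

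In the combined list the number of regions was closer to the rest of 3R than the covered length was. It held 6.00 regions per 100 kb in the Antennapedia complex and 6.67 in the bithorax complex, against 7.84 per 100 kb outside. In replicate 1 there were 2.00 regions per 100 kb in the Antennapedia complex and 1.82 in the bithorax complex, against 3.63 outside. In replicate 2 there were 2.29 and 2.12, against 4.599 outside. For the bithorax complex more windows had a lower number of regions (12.1% in replicate 1 and 8.81% in replicate 2) than had a lower covered share. For the Antennapedia complex fewer did (15.7% and 9.69%). Windows can tie in number, and in replicate 2 85.6% held more regions than the Antennapedia complex while 87.8% were covered more. The statement on the combined list thus extended to both replicates for the bithorax complex. For the Antennapedia complex it did not in replicate 1, and in replicate 2 it depended on ties. Regions in the complexes were narrower, with a median width of 1585 bp in the Antennapedia complex and 1686 bp in the bithorax complex, against 2091 bp outside. Of 3R windows, 2.25% had a narrower median than the Antennapedia complex and 8.88% a narrower one than the bithorax complex. In replicate 1 the median widths were 1605 bp in the Antennapedia complex and 1511 bp in the bithorax complex, against 1988 bp outside. In replicate 2 they were 2090 bp and 1544 bp, against 2138 bp outside. For the Antennapedia complex in replicate 2 the difference was thus small.

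Regions were spread along the complexes in short pieces. Of the 10-kb bins, 17 of 35 in the Antennapedia complex (48.6%) and 14 of 33 in the bithorax complex (42.4%) held no combined-list sequence, near the 43.3% of 2722 bins outside. In the same list, bins covered to at least 50% numbered 1 of 35 and 0 of 33, against 16.7% of the bins outside. The replicate lists differed from this. In replicate 1 the share of empty bins was 80% in the Antennapedia complex and 81.8% in the bithorax complex, against 66.8% outside. In replicate 2 it was 74.3% and 75.8%, against 59.5% outside. Empty bins were thus near the share outside in the combined list and above it in both replicates. Bins covered to at least 50% also numbered 1 of 35 and 0 of 33 in each replicate, but such bins made up only 2.50% of those outside in replicate 1 and 5.99% in replicate 2, so the low count stood out in the combined list alone. The median distance between neighbouring regions was 8.49 kb in the Antennapedia complex and 10.5 kb in the bithorax complex, against 3.42 kb outside.

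Median scores were lower in the complexes than on the rest of 3R in all 3 lists. For the combined list the median score was 0.399 in the Antennapedia complex (range 0.251 to 1.37) and 0.401 in the bithorax complex (range 0.317 to 0.513), against 0.434 outside. Of these, 4 of 21 and 5 of 22 regions reached the median score of the whole list, 0.442, against 46.0% of the 2135 regions outside. In replicate 1 the medians were 0.561 in the Antennapedia complex and 0.523 in the bithorax complex, against 0.608 outside. In replicate 2 they were 0.599 and 0.504, against 0.609 outside. The share of windows with a lower median score than the Antennapedia complex was 4.03% in the combined list, 10.8% in replicate 1 and 37.4% in replicate 2. For the Antennapedia complex in replicate 2 the difference was thus small. For the bithorax complex the share was 6.06% in the combined list and 3.52% in replicate 1, and in replicate 2 it was 4 of 2757 windows with a region. The files do not name the scale of the score, so these differences have no unit.

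**Figure D3:**
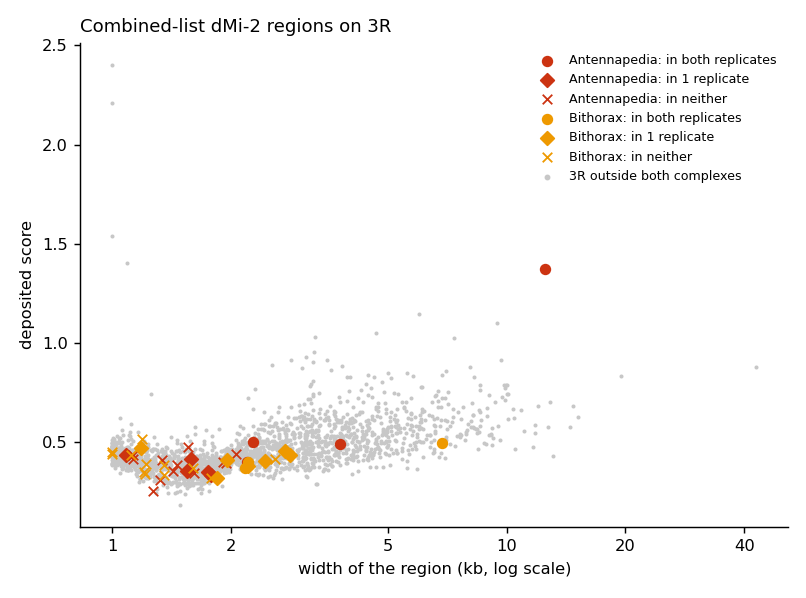
Deposited score against width (kb, log scale) of each combined-list region on 3R, with regions of the Antennapedia complex in red, of the bithorax complex in orange and of the rest of 3R in grey. Symbols give replicate support; the red circle at 12.5 kb and score 1.37 stands apart, and the other 42 regions of the complexes have scores of 0.513 or less.

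A region of the Antennapedia complex stood apart from the others, at 3R:2637300-2649794, which spans 12.5 kb from 157 to 170 kb into the complex. Its score of 1.37 compares with 0.499 for the next region of the complex in the combined list. Replicate 1 covered 73.4% of it with 2 regions, 3R:2637520-2639124 (score 0.656) and 3R:2642164-2649726 (score 1.68). Replicate 2 covered 71.8% of it with 2 regions, 3R:2639926-2642900 (score 0.622) and 3R:2643771-2649770 (score 1.93). The larger region of each replicate had the highest score of all regions on 3R in its list and ranked 4 and 3 over the whole list. These larger regions shared 5956 bp, and their centres were 825.5 bp apart. The 12.5-kb region itself ranked 5 by score and 9 by width among the 2178 combined-list regions on 3R, and 1 by score among those that overlapped both replicates.

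This single region carried much of the dMi-2 coverage of the Antennapedia complex. It made up 26.8% of the combined-list coverage there, 53.5% of that in replicate 1 and 45.0% of that in replicate 2. Of the sequence covered in both replicates, 57.8% lay inside it. Without this region, an alternative added once the values were known, 9.75% of the complex was covered and 8.38% of 3R windows were covered less. Outside its bounds, scores in the Antennapedia complex were at most 0.587 in replicate 1 and 0.641 in replicate 2.

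The other regions of the Antennapedia complex found in both replicates were much narrower than the 12.5-kb region, but wider than the complex median of 1585 bp. They lay near the ends of the complex and about 260 kb into it. The first was 3R:2484448-2486726 (2279 bp, score 0.499), at 4.4 to 6.7 kb from the low-coordinate end. It was matched by 3R:2485052-2486512 in replicate 1 (score 0.427) and 3R:2484334-2486733 in replicate 2 (score 0.624). The replicate 1 score ranked 4139 of 4213 in its list, whereas the replicate 2 score was near the middle of its list, at rank 2642 of 5359. The next was 3R:2736810-2740578 (3769 bp, score 0.491), where the replicates shared 1802 bp and their centres were 294 bp apart. The last was 3R:2825654-2827854 (2201 bp, score 0.398), where the replicate 1 region of 1623 bp lay wholly inside that of replicate 2 and the centres were 96 bp apart.

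The top scores of the bithorax complex were low among those of 3R windows in every list. Its highest score was 0.513 in the combined list, 0.618 in replicate 1 and 0.681 in replicate 2. The replicate 2 value belongs to 3R:12476949-12480682, of which only 683 bp lie inside the bounds, and the next score was 0.630. Of 3R windows of the same length, 98.9% held a higher score in the combined list, 96.3% in replicate 1 and 97.1% in replicate 2. The combined-list region with the highest score, 3R:12561732-12562920 (1189 bp), overlapped neither replicate. The widest region, 3R:12475492-12482326 (6835 bp, score 0.497), crosses the low-coordinate end, and 2327 bp of it lie inside the bounds used. In replicate 1 the widest region of the complex was 2045 bp, and 96.7% of windows held a wider one. In replicate 2 it was 3R:12476949-12480682 (3734 bp), which lies mostly outside the bounds, and 82.6% of windows held a wider one. In the combined list 64.7% of windows held a wider one.

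The bithorax complex held 3 regions found in both replicates, of which only 2 lay fully inside. The region at the low-coordinate end overlapped 2 regions of replicate 1 and 1 of replicate 2. The 1 replicate 1 region inside the bounds, 3R:12480539-12482047 (score 0.532), met the replicate 2 region 3R:12476949-12480682 (score 0.681) by only 144 bp. The second was 3R:12694118-12696322 (2205 bp, score 0.400), with 1031 bp shared between 3R:12694750-12696133 in replicate 1 (score 0.506) and 3R:12694348-12695780 in replicate 2 (score 0.630). The third was 3R:12723952-12726116 (2165 bp, score 0.369), with 1296 bp shared between 3R:12724036-12725654 in replicate 1 (score 0.618) and 3R:12724359-12726003 in replicate 2 (score 0.494). In these 2 inner regions each replicate covered between 62.8% and 76.0% of the combined-list region.

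The share of regions supported by both replicates was lower in value in each complex than on the rest of 3R, on few regions. Among combined-list regions, 4 of 21 Antennapedia complex regions (19.0%, 95% exact interval 5.45 to 41.9) and 3 of 22 bithorax complex regions (13.6%, interval 2.91 to 34.9) overlapped both replicates, against 33.4% of the 2135 regions outside. Regions that overlapped neither replicate numbered 12 of 21 (57.1%) and 12 of 22 (54.5%), against 39.8% outside. The intervals of both complexes include the share outside. Taken over both complexes, 7 of 43 regions overlapped both replicates (16.3%, interval 6.81 to 30.7). The intervals cover counting error only, and no test of the difference was run. They also treat regions as independent, although all come from the same libraries and some neighbouring regions touch. The pooled interval ends below the share outside, but for this reason it cannot decide whether the complexes differ from the rest of 3R. The 24 regions in neither replicate had a median width of 1342 bp and a median score of 0.394, close to 1334 bp and 0.403 for such regions outside. For the 7 regions shared by both replicates the median width was 2279 bp and the median score 0.491, against 3799 bp and 0.542 for such regions outside.

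Seen from the replicates, 7 of 13 replicate 1 regions of the complexes (53.8%, interval 25.1 to 80.8) overlapped replicate 2, against 80.8% outside. In replicate 2, 8 of 15 regions (53.3%, interval 26.6 to 78.7) had an overlap in replicate 1, against 62.9% outside. The split by complex was 4 of 7 and 3 of 6 in replicate 1, and 5 of 8 and 3 of 7 in replicate 2. The intervals are wide and treat regions as independent. That of replicate 2 includes the share outside, and that of replicate 1 ends at almost the same value as the share outside. By sequence, the values of the complexes lay further apart. In the Antennapedia complex 11.6 kb was covered in both replicates, or 67.5% of what replicate 1 covered there and 58.0% of what replicate 2 covered. In the bithorax complex 2.47 kb was covered in both, or 26.0% and 24.9%. On the rest of 3R these shares were 76.8% and 53.2%. As a share of the complex, the sequence covered in both replicates was 3.31% in the Antennapedia complex and 0.749% in the bithorax complex, against 6.45% on the rest of 3R, and 1.70% of 3R windows had less than the bithorax complex.

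Regions found in 1 replicate alone had scores from 0.503 to 0.656 in replicate 1 and from 0.466 to 0.577 in replicate 2. The score of 0.656 belongs to a region inside the 12.5-kb region, and outside it those of replicate 1 reached at most 0.587. Shared regions outside the 12.5-kb region had scores from 0.427 to 0.618 and from 0.494 to 0.681, so the ranges overlapped. In replicate 2 the shared scores of 0.494 and 0.529 lay within the range of regions found there alone. The other shared scores, from 0.624 to 0.681, lay above it. In the Antennapedia complex the regions of replicate 1 alone were 3R:2637520-2639124, 3R:2673614-2675015 and 3R:2803265-2804752, with scores from 0.503 to 0.656. The first of these lay 801 bp from a replicate 2 region inside the 12.5-kb region, and the others lay 23.8 and 21.1 kb from the nearest replicate 2 region. Those of replicate 2 were 3R:2503396-2505048, 3R:2549282-2550626 and 3R:2586694-2588100, with scores from 0.556 to 0.577, all at least 16.9 kb from a replicate 1 region. In the stretch that holds these 3 regions, replicate 1 had none from 6.5 to 158 kb into the complex.

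In the bithorax complex the regions of replicate 1 alone were 3R:12527686-12529730, 3R:12553063-12554513 and 3R:12675896-12677407, with scores from 0.511 to 0.549. Those of replicate 2 alone were 3R:12525010-12526337, 3R:12682487-12684030, 3R:12759003-12760368 and 3R:12794966-12796903, with scores from 0.466 to 0.521. Although they did not overlap, 3R:12527686-12529730 and 3R:12525010-12526337 were 1348 bp apart, and 3R:12675896-12677407 and 3R:12682487-12684030 were 5.08 kb apart. The last 2 of replicate 2 had no replicate 1 region within 15.0 kb. Replicate 1 held no region in the last 84.3 kb of the complex.

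Long bare stretches lay inside both complexes. In the combined list the 3 longest of the Antennapedia complex were 3R:2504991-2549371 (44.4 kb), 3R:2675333-2718565 (43.2 kb) and 3R:2598521-2634985 (36.5 kb). The 3 longest of the bithorax complex were 3R:12562921-12619643 (56.7 kb), 3R:12638315-12672565 (34.3 kb) and 3R:12726117-12758421 (32.3 kb). With all 3 lists joined, the first of the Antennapedia complex was 44.2 kb and the other 5 were bare over the same bases. On 3R, 104 of 2178 bare stretches were at least as long as the first of the Antennapedia complex and 73 at least as long as the first of the bithorax complex. In the combined list 78.9% of 3R windows held a longer bare stretch than the Antennapedia complex and 60.4% a longer one than the bithorax complex.

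In the replicate lists the bare stretches were longer. Replicate 1 left 151 kb of the Antennapedia complex without a region (3R:2486513-2637519), and replicate 2 left 87.8 kb (3R:2649771-2737596). In the bithorax complex replicate 1 left 121 kb bare (3R:12554514-12675895) and replicate 2 left 156 kb (3R:12526338-12682486). Windows with a longer bare stretch than the Antennapedia complex made up 27.4% in replicate 1 and 60.01% in replicate 2. For the bithorax complex they made up 39.2% in replicate 1 and 16.8% in replicate 2, so the place among windows depended on the list. The bithorax stretches of the replicates overlap between 74.5 and 196 kb into the complex, where neither replicate had a region while 4 combined-list regions lay wholly inside the stretch and overlapped neither.

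Cut into 3 parts of equal length, the Antennapedia complex was covered in the combined list to 10.0% in the low-coordinate part, 14.9% in the middle and 15.0% in the high-coordinate part. The replicates differed most in the low part, with 1.25% in replicate 1 and 5.83% in replicate 2. In the middle part they gave 9.06% and 7.69%, and in the high part 4.39% and 3.58%. In the bithorax complex coverage was more even in the combined list, with 13.2%, 11.2% and 10.6% in the low, middle and high parts. There the replicates ran in opposite directions, with 4.55%, 2.63% and 1.47% in replicate 1 and 1.83%, 2.71% and 4.50% in replicate 2. By region centre these parts held only 3, 2 and 1 regions in replicate 1 and 1, 2 and 3 in replicate 2. No trend along the bithorax complex was thus shared by the replicates.

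**Figure D4:**
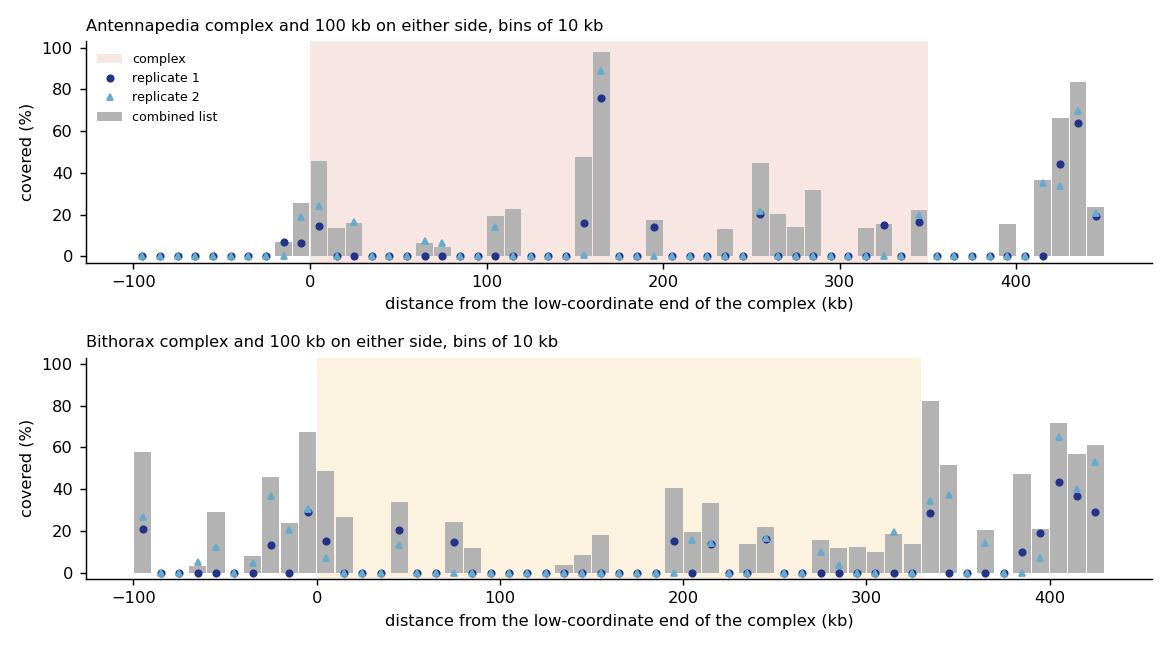
Share of sequence covered (percent) in bins of 10 kb across each complex (shaded) and 100 kb on either side, against distance in kb from the low-coordinate end. Grey bars are the combined list, and points and triangles are replicates 1 and 2; the bin at 160 kb of the Antennapedia complex reaches 98.0% in the combined list, while coverage beside the bithorax complex is higher than inside it. In the high-coordinate flank of the Antennapedia complex the bin at 430 kb reaches 83.5% in the combined list.

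The 50 kb on either side of the bithorax complex was covered more than the complex as a whole, and that beside the Antennapedia complex less. In the 50 kb before the bithorax complex the combined list covered 28.9%, and in the 50 kb after it 30.8%, whereas the complex itself was covered to 11.7%. Both replicates showed higher coverage on each side than the complex average, with 8.44% and 5.70% in replicate 1 and 18.5% and 17.1% in replicate 2, against complex averages of 2.88% and 3.01%. The step at the edges themselves was smaller in some lists. The first 50 kb inside the bithorax complex was covered to 21.8% in the combined list, 7.11% in replicate 1 and 4.02% in replicate 2, so at the low-coordinate edge a marked step was seen in replicate 2 alone. The last 50 kb inside was covered to 13.1% in the combined list, 0% in replicate 1 and 4.61% in replicate 2, below the 50 kb after it in all 3 lists. In the combined list the 50 kb before the Antennapedia complex was covered to 6.45% and the 50 kb after it to 3.06%. Both were below the 13.3% of the complex. The 50 kb before it was covered to 2.61% in replicate 1 and 3.78% in replicate 2, against complex averages of 4.90% and 5.70%. These averages include the 12.5-kb region, which held 53.5% and 45.0% of the coverage of the complex in the replicates. The first 50 kb inside was covered to 2.92% in replicate 1 and 8.11% in replicate 2, so replicate 1 showed almost no step there. In the 50 kb after the Antennapedia complex neither replicate had any region. Farther out coverage rose. The 10-kb bins at 410 to 440 kb from its low-coordinate end were covered to between 23.5% and 83.5% in the combined list. The bin at 430 kb was the highest of these in both replicates, at 63.8% in replicate 1 and 69.8% in replicate 2. The lower coverage beside this complex thus holds for the nearest 50 kb only. The bounds of the complexes are round positions, and widening them by 10 kb at each end raised the covered share of the bithorax complex to 15.3%.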

How the data were processed

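ChIP-seq of dMi-2 was analysed from 3 lists of enriched regions, 1 for each of 2 ChIP replicates and 1 combined list. Per the submitters' processing notes the authors used Bowtie 0.12.7, a read aligner. Coordinates are on FlyBase release 5, per the file headers. For the region caller, its settings and the making of the combined list, details were not given in the sources used here. Each region carries a deposited score on a scale that no header names. Scores were compared within a list only. A bare stretch means only that no region was listed there.

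Regions touching a complex by 1 bp were members, and coverage was clipped at its bounds. An overlap of 1 bp sufficed for a region to count as shared. Windows of the length of each complex were moved over 3R in steps of 10 kb. Named regions are, per complex, the 3 highest-scoring combined-list regions in both replicates, the 3 widest, the 3 highest-scoring of each replicate, the 3 longest bare stretches, and replicate regions without a match where 5 or fewer. Others named, such as the last region of the Antennapedia complex in both replicates, the top-scoring region of the bithorax complex and the pair sharing a base, were chosen after their values were seen. Intervals are 95% exact binomial (Clopper-Pearson). Overlap and coverage functions were tested on simulated data and against bedtools 2.31.1. Python 3.11.15, numpy 2.4.6, pandas 2.3.3, scipy 1.17.1 and matplotlib 3.10.9 were used. Regions were not described by Hox gene, since the gene table is on another release. Members, bounds and comparisons were chosen with earlier results of these data known. Alternatives were the list, the overlap rule, score and width minimums, merging, the bounds and the choice of windows.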

Additional observations from a re-analysis of the deposited data

How the results depend on the processing

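No paired analysis was possible because the inputs, which share replicate numbers with the ChIP libraries, have no region list. Complex and rest of 3R were set side by side within each replicate, and that difference was left untested by choice. Removing the widest region was decided on after seeing the data. Among 72 alternative values, 41 stayed close to the reported value and 31 moved by more than the spread between replicates, its interval or, for counts, 1.5 times. Under each alternative tried for the windows, fewer than 50% of windows were covered less than either complex.

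Covered shares of the Antennapedia and bithorax complexes were 4.90% to 5.70% and 2.88% to 3.01% in the single replicate lists (without the other replicate), 3.31% and 0.749% in both replicates, 5.74% and 2.56% with regions at or above the median score, 12.0% and 8.90% without regions narrower than 1301 bp, and 12.1% and 10.4% with bounds 10 kb narrower. With bounds 10 kb wider the bithorax share was 15.3%, and without the widest region the Antennapedia share was 9.75%. Region numbers at or above the median score were 4 and 5. Of these few regions, 75% in the Antennapedia complex and 20% in the bithorax complex overlapped both replicates. No such share is given for the rest of 3R. In the bithorax complex 14 regions were at least 1301 bp wide.

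The percent of windows covered less was 12.1% to 23.5% (Antennapedia) and 3.88% to 8.59% (bithorax) without a replicate, 12.4% and 3.19% at or above the median score, 1.70% for bithorax sequence in both replicates, 30.7% for bithorax bounds 10 kb wider, and 8.38% for the Antennapedia complex without the widest region. The longest bare stretch was 87.8 to 151 kb and 121 to 156 kb in single replicates, and 151 and 196 kb at or above the median score. Depth is unknown, so it cannot be said whether weaker regions went unlisted.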

Other observations

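The replicate 2 region 3R:2586694-2588100 of the Antennapedia complex (score 0.565) had no overlap in the combined list, although a combined-list region, 3R:2584632-2586578, ends just before it. All 13 replicate 1 regions and the other 14 of 15 replicate 2 regions of the complexes had such an overlap. On 3R outside the complexes 99.5% of replicate 1 regions and 99.6% of replicate 2 regions had one, so such overlap was not particular to the complexes. In the combined list 3 of 20 neighbouring pairs of regions in the Antennapedia complex and 2 of 21 in the bithorax complex were less than 1 kb apart, against 24.2% of pairs on the rest of 3R. One of these pairs, 3R:2482668-2484448 and 3R:2484448-2486726, shares a boundary base, with scores of 0.334 and 0.499.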
